A study of Rattus norvegicus with 4 samples.

Results

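The genes described here are 43 germline genes of the rat, measured by RNA-seq in day 4 embryoid bodies, the aggregates that embryonic stem cells form as they start to differentiate. They were taken from the 32753 genes of the deposited tables as the rows whose symbol equals a listed member, and each of the 43 symbols matched 1 row. The list covers the chromosome axis and recombination machinery of meiosis, the piRNA pathway and germ cell regulators, and it was drawn up with the Kcnh2-/- minus WT difference in RPKM of these same libraries known, so its members count as selected on that difference. The difference is therefore given as a description, and the fitted p-values printed with it support nothing about the choice of genes. The libraries came from Kcnh2-/- and wild-type (WT) rat embryonic stem cells of a strain labelled DASD, with 2 libraries per genotype and all at differentiation day 4. Cells of both genotypes spent 2 days in hanging drops in medium with CHIR9902 (0.75 µM), PD0325901 (0.1 µM) and Y27632 (10 µM). They then spent 24 hours on laminin with CHIR9902 and PD0325901 and 1 day in DM medium. Nothing in the labels tells if replicates are separate cultures, how many clones stand behind a genotype, or which part of Kcnh2 was altered. The p-values therefore measure only the spread between these samples, which may be technical.

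In meiosis, homologous chromosomes are folded along a protein axis, broken and repaired by recombination, and held together by the synaptonemal complex. The piRNA pathway uses Piwi proteins loaded with small RNAs to silence transposons in germ cells, and its Tudor-domain proteins and helicases gather beside the mitochondria. In somatic mouse cells many of these genes are held silent by DNA methylation and by a Polycomb complex that contains E2F6 and the MGA and MAX proteins. Mouse embryonic stem cells are known to transcribe part of the program at a low level.

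Values are given as RPKM, which scales reads to the length of the transcript and the size of the library, so levels may be compared between genes. Kcnh2 itself was at 0.108 and 0.504 RPKM in Kcnh2-/- replicates 1 and 2, against 2.61 and 1.45 RPKM in WT replicates 1 and 2. Absolute read depth is unknown, and 17610 to 17833 genes were above 0 in each library. RPKM summed over all genes to 1.09e+08 and 7.95e+07 in the Kcnh2-/- and WT libraries numbered 1. In those numbered 2 the sums were 8.93e+06 and 1.17e+07. Of these sums 90.31% to 99.46% lay outside protein-coding genes. Sums over protein-coding genes did not follow the number. They were 5.88e+05 and 8.65e+05 in Kcnh2-/- replicates 1 and 2, and 1.02e+06 and 7.12e+05 in WT replicates 1 and 2. Values under 0.08 RPKM shared a common ratio most often between libraries of the same number, for 30.4% of 484 genes with number 1 and 34.8% of 650 genes with number 2, against 11.5% to 14.5% for libraries of different numbers. The labels name no batch. Libraries of the same number were alike in the sum over all genes and in these ratios. The genotype difference within each number is therefore printed beside the pooled one. Pou5f1, a pluripotency gene, was at 1043 and 1679 RPKM in Kcnh2-/- and at 273 and 1203 RPKM in WT.

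Of the 43 genes, 20 were higher in both Kcnh2-/- libraries than in either WT library. They were 9 of the 13 chromosome axis and synaptonemal complex genes, 4 of the 14 piRNA pathway genes, 2 of the 5 recombination genes (Spo11 and Dmc1), and Sohlh1, Sohlh2, Nanos3, Brdt and Tuba3b. The crossover factor gene Tex11 was counted with the axis genes and not with the recombination genes. The recombination genes Spo11, Dmc1 and Msh4, the Piwi genes Piwil1 and Piwil4 and the oocyte transcription factor genes Figla and Nobox were under 0.5 RPKM in all 4 libraries. Nanos2 was the 1 gene lower in both Kcnh2-/- libraries. Over all 20201 genes above 0 in any library, 14.1% were higher in this way and 14.4% were lower. The summed RPKM of the 43 genes was 500.5 and 1016 in Kcnh2-/- replicates 1 and 2, against 76.7 and 423 in WT replicates 1 and 2.

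**Figure D1:**
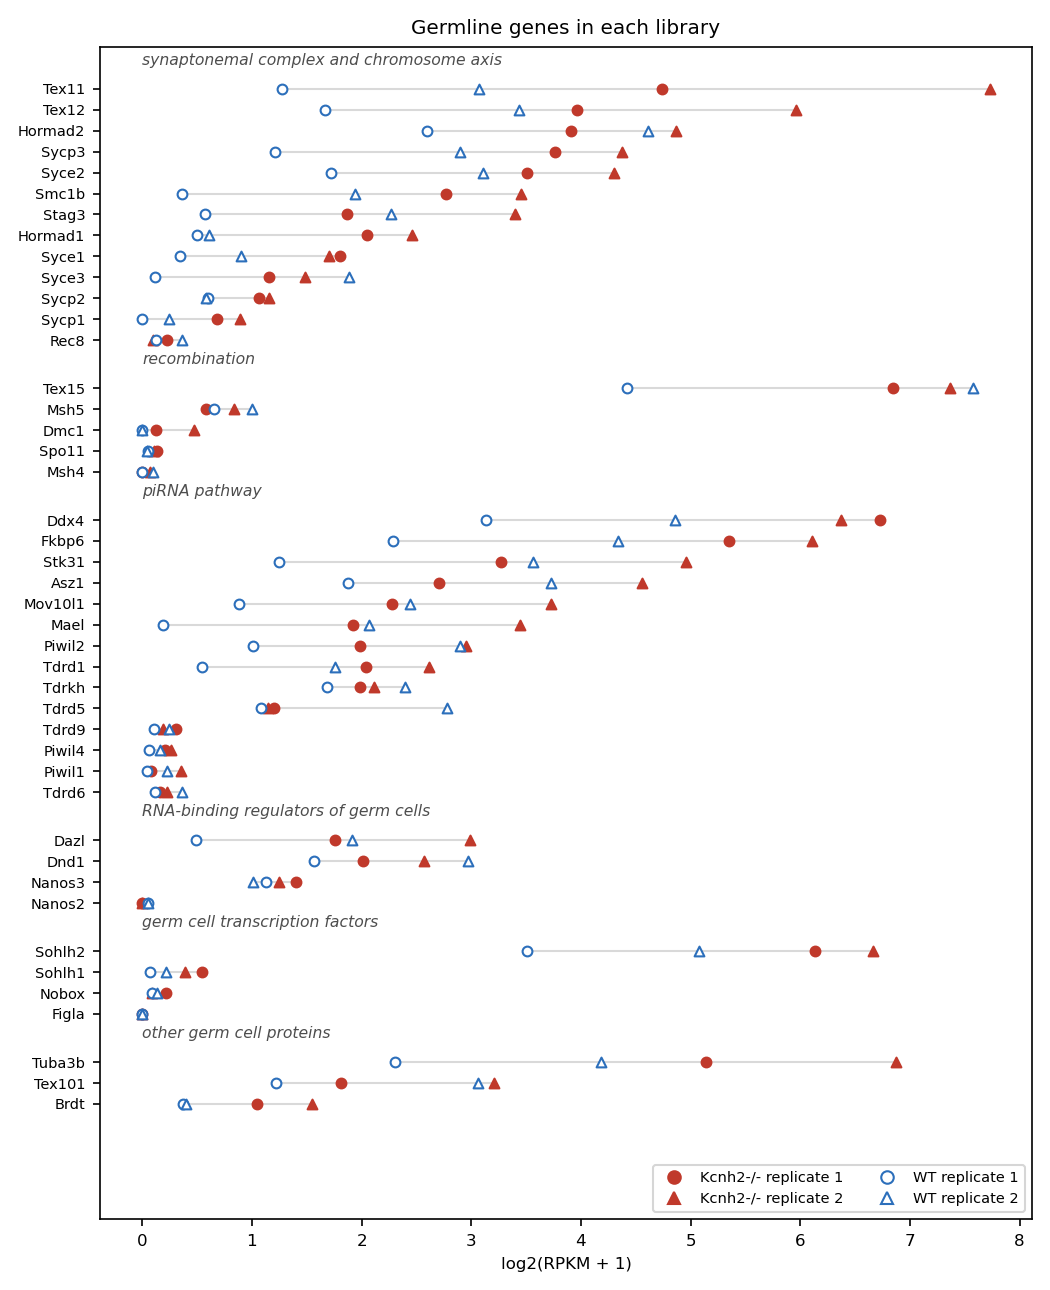
Level of each of the 43 germline genes, as log2(RPKM + 1), in 2 Kcnh2-/- libraries (filled) and 2 WT libraries (open), with circles for replicate 1 and triangles for replicate 2. In 20 genes both filled symbols lie to the right of both open ones, and the open triangle lies to the right of the open circle in 38 genes.

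For the fit, log2(RPKM + 1) was compared with limma over 12355 genes, those that reached 1 RPKM in 2 or more libraries, and 29 of the 43 genes passed this filter. For Hormad1, Syce1, Sycp2 and Brdt it was the Kcnh2-/- libraries alone that reached 1 RPKM, so a difference was built into their passing. None of the 29 was called at an adjusted p under 0.05 by limma, and 9 were at an unadjusted p under 0.05, all of them higher in Kcnh2-/-. Limma called 0.0324% of the genes tested higher and 0.0809% lower, and 2.07% were higher at an unadjusted p under 0.05. An exact permutation test of 2 against 2 libraries cannot go below p = 0.33. Of the 29, 28 had a higher mean of log2(RPKM + 1) in Kcnh2-/-, against 50.4% of all genes tested. Their median difference in log2(RPKM + 1) was 1.18, beside 0.00524 over all genes tested. Without WT replicate 1 that median was 0.56 and 20 of the 29 were higher on average, and with WT replicate 2 left out the median was 1.89. It was 1.79 when Kcnh2-/- replicate 1 was left out. When Kcnh2-/- replicate 2 was left out it was 0.79, and 24 of the 29 were higher on average. Groups did not overlap, with Kcnh2-/- higher, in 15 of the 29 and in 16.7% of all genes tested. For Hormad1, Syce1, Sycp2 and Brdt, 4 of the 15, the filter fixed this outcome, as it did for 130 of all genes tested. The same 4 are among the 28 and in the median of 1.18. With 1 library left in a genotype groups overlap less often by construction. The count was then 24 (36.3% of all genes tested) with Kcnh2-/- replicate 1 left out, 15 (25.2%) with Kcnh2-/- replicate 2 left out, and 29 (41.8%) with WT replicate 2 left out. With WT replicate 1 left out it was 15 higher (33.0%) and 5 lower (35.2%). With the replicate number as a term in the fit, limma called 2 of the 29 higher, Tex11 and Tuba3b, and 0.113% of all genes tested higher and 0.113% lower. Fitted with that term to protein-coding genes alone, it called 6 of the 29 higher (Tex11, Tuba3b, Tex12, Fkbp6, Sohlh2 and Ddx4), and 0.526% of 10845 genes higher and 0.221% lower. Within both replicate numbers, 24 of the 29 were higher in Kcnh2-/-, and 30.8% of all genes tested were.

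The axis and synaptonemal complex genes were the group with the most members set apart: 9 of 13 were higher in both Kcnh2-/- libraries, beside 14.1% of all genes above 0, and their summed RPKM was 94.5 and 369 in Kcnh2-/-, against 14.4 and 66.4 in WT. The 9 include Tex11, which was counted here although it is a crossover factor and not a protein of the axis. Tex11 alone made up most of that sum in Kcnh2-/- replicate 2. In bulk RNA, more cells that express a gene and more RNA per cell cannot be told apart. Tex11 (rn6 X chromosome, 70670321 to 70946565), a meiotic crossover factor, had the largest difference. It was at 25.7 and 211 RPKM in Kcnh2-/- replicates 1 and 2, against 1.42 and 7.40 RPKM in WT replicates 1 and 2. The difference in log2(RPKM + 1) was 4.06 ± 1.18 (SE, limma adjusted p = 0.980), and it was 3.46 within replicate 1 and 4.66 within replicate 2. With the replicate number as a term the limma adjusted p was 0.0415, and 0.00227 over protein-coding genes alone. Without Kcnh2-/- replicate 2 the difference was 2.57. Tex11 is the X-linked member of the set, and X-linked genes as a whole were higher in Kcnh2-/-. Over 358 tested protein-coding X-linked genes the median difference in log2(RPKM + 1) was 0.64 within replicate 1 and 0.59 within replicate 2, against -0.0214 and 0.0128 over 10478 autosomal genes. Over the 65 X-linked genes within 10 Mb of Tex11 it was 0.57 within replicate 1 and 1.65 within replicate 2. The part of the X chromosome in the level of Tex11 was not tested.

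Sycp3 (rn6 chromosome 7, 29029262 to 29070928) encodes a protein of the lateral element of the synaptonemal complex. It was at 12.6 and 19.8 RPKM in Kcnh2-/-, against 1.32 and 6.43 RPKM in WT. Both Kcnh2-/- libraries lay above the higher WT library. Its partner in the lateral element, Sycp2, was lower in level, at 1.09 and 1.23 RPKM in Kcnh2-/- and 0.515 and 0.495 RPKM in WT. Sycp1, the transverse filament that joins the lateral elements, stayed under the filter at 0.602 and 0.854 RPKM in Kcnh2-/- and at 0 and 0.181 RPKM in WT. All 3 genes had groups that did not overlap, but only Sycp3 was above 10 RPKM in any library.

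The central element lies between the lateral elements, and 3 of its 4 listed genes had groups that did not overlap. Tex12 (rn6 chromosome 8, 54965582 to 55016299) was at 14.6 and 61.5 RPKM in Kcnh2-/-, against 2.18 and 9.79 RPKM in WT, with differences in log2(RPKM + 1) of 2.30 within replicate 1 and 2.53 within replicate 2. Its binding partner gene Syce2 (rn6 chromosome 19, 25983168 to 26006970) was at 10.4 and 18.7 RPKM in Kcnh2-/-, against 2.30 and 7.61 RPKM in WT. Syce1 was at 2.49 and 2.26 RPKM in Kcnh2-/-, against 0.273 and 0.866 RPKM in WT. Syce3 differed from these: it was at 1.23 and 1.79 RPKM in Kcnh2-/- and at 0.0839 and 2.70 RPKM in WT, so the WT replicate 2 library was the highest of the 4.

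The HORMA-domain proteins HORMAD1 and HORMAD2 mark unsynapsed axes. Hormad1 (rn6 chromosome 2, 197681999 to 197750115) was at 3.13 and 4.49 RPKM in Kcnh2-/-, against 0.413 and 0.526 RPKM in WT. Replicates of Hormad1 lay close together within each genotype, and its difference in log2(RPKM + 1) was 1.70 ± 0.37 (SE), in a gene that passed the filter through the Kcnh2-/- libraries alone. Hormad2 was higher in level but its groups overlapped, at 14.0 and 28.2 RPKM in Kcnh2-/- and 5.05 and 23.5 RPKM in WT. Of the meiotic cohesin subunits, Smc1b (rn6 chromosome 7, 125966479 to 126028279) was at 5.83 and 9.97 RPKM in Kcnh2-/-, against 0.287 and 2.85 RPKM in WT. Stag3 was at 2.64 and 9.57 RPKM in Kcnh2-/- and at 0.483 and 3.81 RPKM in WT. Rec8, a kleisin that closes the meiotic cohesin ring, was under 0.5 RPKM in every library, at 0.171 and 0.0702 RPKM in Kcnh2-/- and 0.0929 and 0.289 RPKM in WT. Smc1b and Stag3 were thus above 1 RPKM in both Kcnh2-/- libraries and Rec8 was not. Rad21l1, another meiotic kleisin gene and no member of the set, was at 2.86 and 3.09 RPKM in Kcnh2-/-, against 0.581 and 2.435 RPKM in WT.

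Several of these genes share a deposited locus with a neighbour, and how the authors' tools divided reads between them is not given. Neighbours at the loci of Sycp3, Syce2 and Hormad1 did not have both Kcnh2-/- libraries above both WT libraries. Chpt1, which shares the locus of Sycp3, was at 5.71 and 6.41 RPKM in Kcnh2-/- and 7.34 and 4.48 RPKM in WT. Gcdh, at the locus of Syce2, was at 19.05 and 20.8 RPKM in Kcnh2-/- and 20.2 and 20.9 RPKM in WT. Golph3l, at the locus of Hormad1, was at 14.0 and 13.1 RPKM in Kcnh2-/- and 16.0 and 10.5 RPKM in WT. Rimbp2, at the locus of Piwil1, did, at 1.13 and 0.991 RPKM in Kcnh2-/- and 0.347 and 0.867 RPKM in WT. An unnamed transcript at the locus of Tex11 was at 3.41 RPKM in Kcnh2-/- replicate 2 and at 0 in the other libraries. A locus is shared in this way by 16 of the 43 genes, 10 of them among the 29 tested.

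Of the 5 genes listed under recombination, 1 passed the filter, and the enzymes that cut and repair DNA in meiosis were barely detected. The crossover factor gene Tex11, counted above with the axis genes, is not among the 5. Spo11, whose product makes the double-strand breaks, was at 0.0972 and 0.0770 RPKM in Kcnh2-/- and 0.0369 and 0.0326 RPKM in WT. The strand-exchange gene Dmc1 was at 0.0931 and 0.389 RPKM in Kcnh2-/- and listed at 0 in both WT libraries. At these levels the lack of overlap rests on very few reads. Msh4 was at 0.0684 RPKM or less in every library, and its partner Msh5 was at 0.501 and 0.782 RPKM in Kcnh2-/- and 0.572 and 0.999 RPKM in WT. Tex15, which in the mouse acts in recombination and in piRNA-directed silencing, was the most abundant of the 43 genes in 3 of the 4 libraries. Tex15 (rn6 chromosome 16, 62313262 to 62373253) was at 114 and 164 RPKM in Kcnh2-/- and at 20.4 and 189 RPKM in WT. Its WT replicates lay far apart and its highest value was in WT, with differences in log2(RPKM + 1) of 2.42 within replicate 1 and -0.21 within replicate 2.

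Among the 14 piRNA pathway genes, 10 passed the filter. Of the 14, 4 were higher in both Kcnh2-/- libraries than in either WT library, beside 14.1% of all genes above 0. They were Ddx4, Fkbp6, Tdrd1 and, under the filter, Piwil4. Among the 10 tested, 3 were higher in this way, beside 16.7% of all genes tested. The summed RPKM of the 14 genes was 177 and 242 in Kcnh2-/-, against 21.7 and 97.6 in WT. Ddx4 and Fkbp6 made up most of that sum in both Kcnh2-/- libraries. Ddx4 (rn6 chromosome 2, 44447572 to 44504354), the germline RNA helicase also called VASA, was at 105 and 81.9 RPKM in Kcnh2-/- replicates 1 and 2, against 7.75 and 27.9 RPKM in WT replicates 1 and 2. Within replicate 1 the Kcnh2-/- library stood 13.6-fold above WT and within replicate 2 it stood 2.93-fold above, and the difference in log2(RPKM + 1) was 2.56 ± 0.63 (SE, limma adjusted p = 0.980, or 0.0421 with the replicate number as a term and protein-coding genes alone). Without WT replicate 1 it was 1.70. Fkbp6 (rn6 chromosome 12, 24367198 to 24438019), a co-chaperone for loading Piwi proteins, was at 39.8 and 67.7 RPKM in Kcnh2-/-, against 3.89 and 19.3 RPKM in WT. Tdrd1, a Tudor-domain scaffold, was at 3.12 and 5.14 RPKM in Kcnh2-/-, against 0.457 and 2.38 RPKM in WT. Ddx4 was higher in the replicate 1 library of Kcnh2-/-, while the other 2 genes were higher in replicate 2.

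A further 6 piRNA genes were higher in Kcnh2-/- within each replicate number but had groups that overlapped, because WT replicate 2 lay above Kcnh2-/- replicate 1. Of the 10 piRNA genes tested, 8 were higher within both replicate numbers, beside 30.8% of all genes tested. Mael was at 2.79 and 9.90 RPKM in Kcnh2-/- and at 0.142 and 3.20 RPKM in WT. Mov10l1, the helicase that feeds piRNA precursors into the pathway, was at 3.86 and 12.2 RPKM in Kcnh2-/- and at 0.844 and 4.42 RPKM in WT. Stk31, which encodes a Tudor-domain protein, was at 8.68 and 30.02 RPKM in Kcnh2-/- and at 1.37 and 10.8 RPKM in WT. Asz1, of the mitochondrial membrane, and Piwil2, the Piwi gene of early germ cells, had this pattern too, and Piwil1 had it under the filter. Asz1 was at 5.54 and 22.6 RPKM in Kcnh2-/- and at 2.67 and 12.3 RPKM in WT, and Piwil2 was at 2.97 and 6.74 RPKM in Kcnh2-/- and at 1.01 and 6.46 RPKM in WT. Piwil1 was at 0.0585 and 0.273 RPKM in Kcnh2-/- and at 0.0335 and 0.169 RPKM in WT.

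Tdrd5 and Tdrkh went another way. Tdrd5 was at 1.29 and 1.22 RPKM in Kcnh2-/- and at 1.12 and 5.86 RPKM in WT, and it was the 1 gene of the 29 with a lower mean of log2(RPKM + 1) in Kcnh2-/- (difference -0.76 ± 0.65, SE, limma adjusted p = 0.980). Tdrkh, which tethers Piwi proteins to mitochondria, was at 2.95 and 3.32 RPKM in Kcnh2-/- and at 2.22 and 4.25 RPKM in WT, with a mean RPKM, unlike its mean log2 value, that was lower in Kcnh2-/-. In both genes WT replicate 2 was the highest of the 4 libraries. Piwil1, Piwil4, Tdrd6 and Tdrd9 stayed under 0.5 RPKM in every library. Piwil2 was therefore the only Piwi gene of the 3 listed that reached 1 RPKM.

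Germ cell regulators were mixed. The basic helix-loop-helix factor gene Sohlh2 (rn6 chromosome 2, 144591754 to 144614064) was at 69.4 and 100.1 RPKM in Kcnh2-/-, against 10.4 and 32.7 RPKM in WT, with differences in log2(RPKM + 1) of 2.63 within replicate 1 and 1.59 within replicate 2. Its partner Sohlh1 was at 0.457 and 0.313 RPKM in Kcnh2-/- and at 0.0485 and 0.159 RPKM in WT. Figla was listed at 0 in all 4 libraries and Nobox, another oocyte factor gene, was at 0.162 RPKM or less. Sohlh2 was thus the only germ cell transcription factor gene of the 4 above 0.5 RPKM.

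The RNA-binding regulators differed from one another as well. Dazl, which controls translation in germ cells, was at 2.39 and 6.95 RPKM in Kcnh2-/- and at 0.403 and 2.77 RPKM in WT. Nanos3 differed little, though its groups did not overlap, at 1.64 and 1.38 RPKM in Kcnh2-/- and 1.18 and 1.02 RPKM in WT, and Nanos2, of the same family, was at 0.0356 RPKM or less. Dnd1 was at 3.04 and 4.95 RPKM in Kcnh2-/- and at 1.97 and 6.84 RPKM in WT, with a mean of 3.99 RPKM in Kcnh2-/- and 4.40 RPKM in WT but a difference in log2(RPKM + 1) of 0.0232 ± 0.59 (SE, limma adjusted p = 0.998). Dazl thus had the ordering seen in Mael and Mov10l1, while in Dnd1 WT replicate 2 was highest.

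Of the other 3 genes, Tuba3b (rn6 chromosome 4, 157789873 to 157798868), a testis-enriched alpha tubulin gene, was at 34.3 and 116 RPKM in Kcnh2-/-, against 3.94 and 17.1 RPKM in WT. Its close paralog Tuba3a was at 6.32 and 8.16 RPKM in Kcnh2-/- and at 0.895 and 2.09 RPKM in WT, and the reads of such similar copies may have been divided between them, so the level of each is uncertain. Brdt, the bromodomain gene of male meiosis, was at 1.06 and 1.93 RPKM in Kcnh2-/-, against 0.293 and 0.315 RPKM in WT. Tex101, a gene of the germ cell surface, was at 2.51 and 8.22 RPKM in Kcnh2-/- and 1.32 and 7.35 RPKM in WT. Tuba3b and Brdt were higher in both Kcnh2-/- libraries, and Tex101 had overlapping groups.

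The replicates of 1 genotype also differed, a measure on which the genes were not chosen. The replicate 2 library was above the replicate 1 library in both genotypes for 24 of the 29 genes tested, against 39.5% of all genes tested. The median difference in log2(RPKM + 1), replicate 2 minus 1, was 0.68 in Kcnh2-/- and 1.69 in WT over these genes, beside 0.0865 and 0.0710 over all genes tested. The gap between the WT libraries was thus larger than the genotype difference of 1.18. In 9 of the 29 genes (Hormad2, Stag3, Piwil2, Mov10l1, Asz1, Mael, Stk31, Dazl and Tex101) the libraries stood in 1 order, with Kcnh2-/- replicate 2 highest, then WT replicate 2, then Kcnh2-/- replicate 1 and WT replicate 1 lowest. How common that order is among all genes tested was not counted, so it cannot be called particular to these genes. In the 5 others without that order or separate groups (Syce3, Tex15, Tdrd5, Tdrkh and Dnd1), WT replicate 2 was the highest library.

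**Figure D2:**
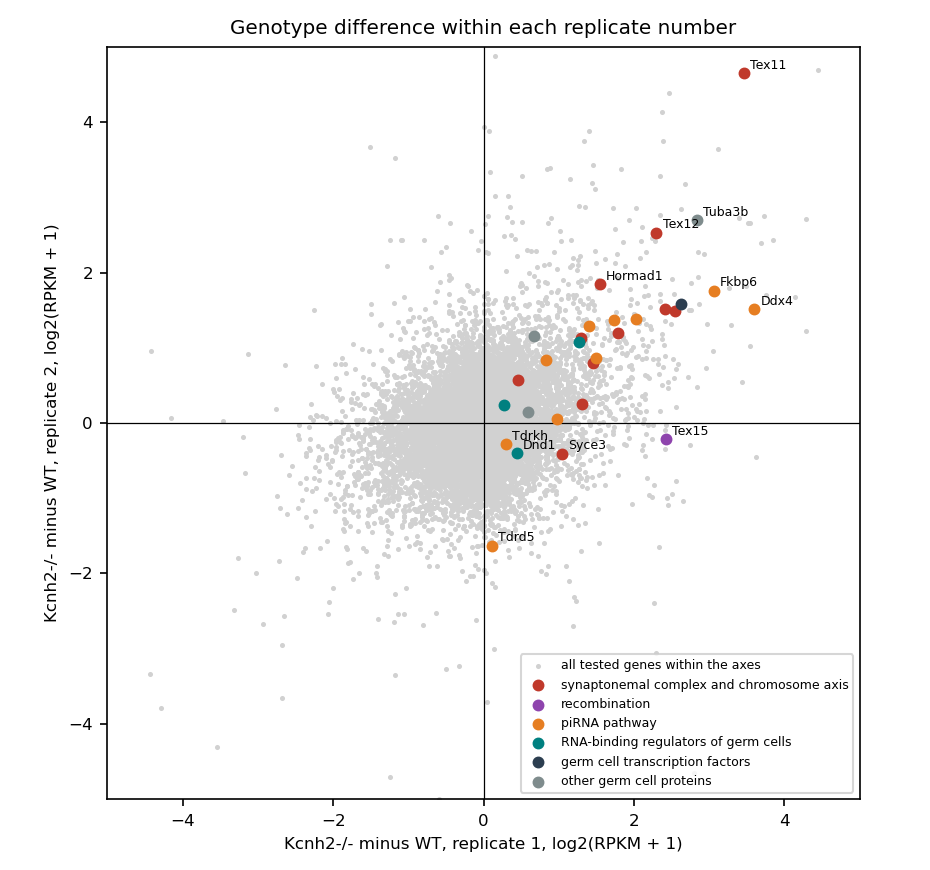
Difference between Kcnh2-/- and WT in log2(RPKM + 1) within replicate 1 (horizontal) and within replicate 2 (vertical), with grey points for the tested genes whose differences lie within 5 of 0 and coloured points for the 29 germline genes by role. The coloured points are mostly at upper right, with Tex11 at 3.46 and 4.66, and 5 genes, among them Tex15 and Tdrd5, fall below the horizontal line.

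Naive pluripotency markers also varied between the libraries. Their summed RPKM over the 11 listed genes found was 177 and 626 in Kcnh2-/-, against 53.4 and 381 in WT. The replicate 2 library was higher in both genotypes for 10 of the 11, which are the 10 tested, beside 39.5% of all genes tested. Within both replicate numbers 6 of the 10 tested were higher in Kcnh2-/-, beside 30.8% of all genes tested. Groups did not overlap, with Kcnh2-/- higher, in 1 of the 10, Fgf4, beside 16.7% of all genes tested. Fgf4 was at 19.4 and 39.8 RPKM in Kcnh2-/- and 5.45 and 15.3 RPKM in WT. Nanog was at 8.69 and 74.2 RPKM in Kcnh2-/- and at 2.50 and 72.6 RPKM in WT. Dppa3, a naive and germ cell gene, was at 117 and 393 RPKM in Kcnh2-/- and at 26.1 and 191 RPKM in WT. Dppa3 was the largest part of the sum in every library, and it shares its deposited locus with Nanog. Klf2 was at 9.27 and 31.7 RPKM in Kcnh2-/- and 1.83 and 13.9 RPKM in WT. Nr0b1 was at 0.134 RPKM or less in every library. The part of the pluripotent cells in the germline levels was not tested.

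**Figure D3:**
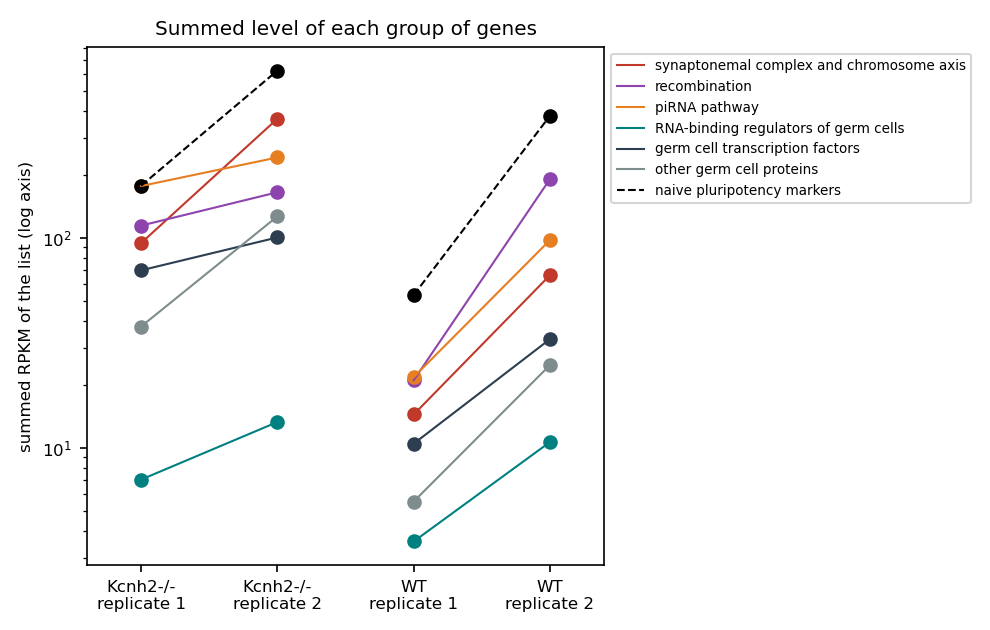
Summed RPKM (log axis) of each group of germline genes, and of 11 naive pluripotency markers (dashed), in the 2 Kcnh2-/- and 2 WT libraries, with lines joining replicates of a genotype. The axis and synaptonemal complex genes sum to 94.5 and 369 in Kcnh2-/- and to 14.4 and 66.4 in WT. Tex11 makes up most of the 369. Every group is higher in replicate 2 than in replicate 1 of its genotype.

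Markers of spermatids and oocytes were mostly under 0.5 RPKM. Of 15 spermatid markers, 11 were under 0.5 RPKM in every library, with Tnp1 and Akap4 at 0, and they summed to 12.3 and 42.4 RPKM in Kcnh2-/- and 9.85 and 18.5 RPKM in WT, mostly from Crem, a transcription factor gene also expressed outside the testis. Crem was at 8.41 and 32.2 RPKM in Kcnh2-/- and 9.20 and 11.9 RPKM in WT, and Odf1, of the sperm tail, at 0.302 and 3.32 RPKM in Kcnh2-/- and 0 and 1.29 RPKM in WT. Of 15 oocyte markers, 12 were under 0.5 RPKM in every library, with Bmp15, H1foo and Oas1d at 0, and they summed to 10.8 and 47.1 RPKM in Kcnh2-/- and 19.05 and 10.3 RPKM in WT. The main part of that sum was Ooep, at 7.71 and 39.9 RPKM in Kcnh2-/- and 17.7 and 6.57 RPKM in WT. Spaca1, of the sperm acrosome, was at 2.02 and 3.64 RPKM in Kcnh2-/- and 0.396 and 2.81 RPKM in WT, and the egg coat gene Zp3 was at 2.02 and 5.89 RPKM in Kcnh2-/- and 0.189 and 3.35 RPKM in WT. Of 13 markers of gonadal somatic cells, which are not germ cells, 5 were under 0.5 RPKM in every library and 3 were tested. All 13 together summed to 9.55 and 4.04 RPKM in Kcnh2-/- and 10.6 and 6.09 RPKM in WT. Gata4 was at 1.54 and 0.0265 RPKM in Kcnh2-/- and 5.19 and 1.32 RPKM in WT. Wt1 was at 2.65 and 0.419 RPKM in Kcnh2-/- and 0.404 and 0.646 RPKM in WT. The steroid gene Star was at 0.279 and 0.662 RPKM in Kcnh2-/- and 1.07 and 1.495 RPKM in WT, and Hsd3b1 at 1.26 and 0.0881 RPKM in Kcnh2-/- and 1.03 and 0.127 RPKM in WT. Cyp17a1 was listed at 0. Limma called none of the genes of these lists.

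Genes of primordial germ cell specification did not share 1 direction. Of 15 tested, 10 were higher and 5 lower on average in Kcnh2-/-, and limma called 0. Groups did not overlap in 2 of the 15 that were higher, Dppa4 and Rhox5, and in 3 that were lower, Kit, Sox17 and Lin28a, which is close to the 16.7% and 15.3% of all genes tested. Rhox5, an X-linked homeobox gene, was at 390 and 241 RPKM in Kcnh2-/-, against 70.4 and 174 RPKM in WT. Kit, the receptor of migrating germ cells, was at 11.5 and 5.12 RPKM in Kcnh2-/-, against 47.7 and 11.9 RPKM in WT. Sox17 was at 4.96 and 1.32 RPKM in Kcnh2-/-, against 20.8 and 5.15 RPKM in WT.

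Among 28 further meiosis genes in the files, 17 were tested, 13 of which were higher on average in Kcnh2-/- (median difference 0.59 in log2(RPKM + 1)) and none was called by limma. Groups did not overlap in 5 of the 17, all higher, beside 16.7% higher and 15.3% lower of all genes tested. Rec114, needed for meiotic breaks, was at 81.4 and 151 RPKM in Kcnh2-/-, against 18.9 and 81.3 RPKM in WT, a bare separation of Kcnh2-/- replicate 1 from WT replicate 2. Tex19.1, which in the mouse protects the germline from retrotransposons, was at 48.9 and 114 RPKM in Kcnh2-/-, against 10.9 and 44.8 RPKM in WT. Meioc, required for meiotic prophase in the mouse, was at 5.66 and 3.52 RPKM in Kcnh2-/-, against 0.709 and 1.31 RPKM in WT.

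Of 17 further piRNA and transposon silencing genes, 15 were tested, 10 of which were higher and 5 lower on average in Kcnh2-/- (median difference 0.23 in log2(RPKM + 1)), and limma called none. Groups did not overlap in 6 that were higher and in 3 that were lower, beside 16.7% and 15.3% of all genes tested. Gpat2, a mitochondrial piRNA factor gene in the mouse, was at 26.3 and 59.2 RPKM in Kcnh2-/-, against 1.43 and 16.1 RPKM in WT. Rnf17, a Tudor-domain gene, was at 3.17 and 5.57 RPKM in Kcnh2-/-, against 0.654 and 2.05 RPKM in WT. The helicase gene Ddx25 was at 1.71 and 0.685 RPKM in Kcnh2-/-, against 5.85 and 2.41 RPKM in WT. The most abundant were Trim28, a co-repressor of transposons, at 525 and 668 RPKM in Kcnh2-/- and 341 and 747 RPKM in WT, and the histone methyltransferase gene Setdb1, at 29.3 and 27.9 RPKM in Kcnh2-/- and 29.6 and 42.6 RPKM in WT. Both are also in the list of repressors.

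Of 31 listed repressors of germline genes and DNA methylation enzymes in the files, 30 were tested, 14 were higher and 16 lower on average in Kcnh2-/-, and limma called none. Their median difference was -0.0155 in log2(RPKM + 1), with 0.0311 within replicate 1 and -0.17 within replicate 2. Groups did not overlap in 1 that was higher, Kdm1a, and in 5 that were lower, namely Mga, Max, Rybp, Setdb1 and Tet3, beside 15.3% of all genes tested that were lower in this way. Mga was at 23.3 and 24.1 RPKM in Kcnh2-/-, against 25.0 and 52.2 RPKM in WT, and Max at 13.2 and 11.0 RPKM in Kcnh2-/-, against 13.5 and 18.5 RPKM in WT. Rybp was at 19.5 and 10.7 RPKM in Kcnh2-/-, against 20.9 and 37.7 RPKM in WT. Mga, Max and Rybp were set apart mainly by WT replicate 2, and their values in WT replicate 1 were close to those in Kcnh2-/- replicate 1. Groups overlapped in E2f6, Pcgf6, L3mbtl2, Rnf2, Ring1, Yaf2, Wdr5 and Cbx3 of the same list. Their differences in log2(RPKM + 1) were 0.37 for Pcgf6, 0.15 for L3mbtl2, 0.13 for Wdr5 and 0.0685 for Cbx3. They were 0.0127 for Ring1, -0.0230 for E2f6, -0.0597 for Rnf2 and -0.30 for Yaf2. The methyltransferase gene Dnmt3b was at 1174 and 618 RPKM in Kcnh2-/- and at 430.1 and 1016 RPKM in WT, and Dnmt3a at 240.0 and 156 RPKM in Kcnh2-/- and 62.7 and 159.9 RPKM in WT. The cofactor gene Dnmt3l was at 173 and 382 RPKM in Kcnh2-/- and at 41.2 and 342 RPKM in WT.

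Promoter sequence was not used to choose the genes. RefSeq promoters (assembly GRCr8, 250 bases before to 50 after the start site) were found for 34 of the 43 genes. Matches on either strand were counted for GCGGGA, the core of E2F and E2F6 sites, for the E-box CACGTG, bound by MGA with MAX, and for the cyclic AMP element TGACGTCA. Matches to different motifs were counted separately, so adjoining ones could share a letter. The E2F letters were in 15 of the 34 promoters (44.1%), against 24.6% of 18999 protein-coding promoters. The E-box was in 12 of the 34 (35.3%), against 7.26%, and 7 of the 34 (20.6%) held both, against 2.46%. The cyclic AMP element was in none of the 34 and in 2.22% of protein-coding promoters. Of the 9 axis and synaptonemal complex promoters found, 8 held the E2F letters, the exception being Hormad2, and 3 held the E-box. Of the 12 piRNA promoters, 7 held the E-box and 4 the E2F letters.

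By genotype pattern, the E2F letters were in 10 of 17 promoters of genes that were higher in both Kcnh2-/- libraries and in 5 of 17 promoters of the other members, and the E-box in 8 and in 4. These counts are small and no test was made. The pattern also rests on the difference on which the genes count as selected. The E2F letters were in 10 of 23 promoters of tested members and in 5 of 11 of those under the filter. The E-box was in 10 and in 2 of these. Promoters of the 34 genes had a median GC content of 59.7% and a median ratio of observed to expected CpG of 0.656, against 55.3% and 0.549 for protein-coding promoters. Nanos2 and Nanos3 stood apart, with CpG ratios of 0.0490 and 0.0406 and none of the motifs. A match of letters is a description of the window and says nothing of binding.

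**Figure D4:**
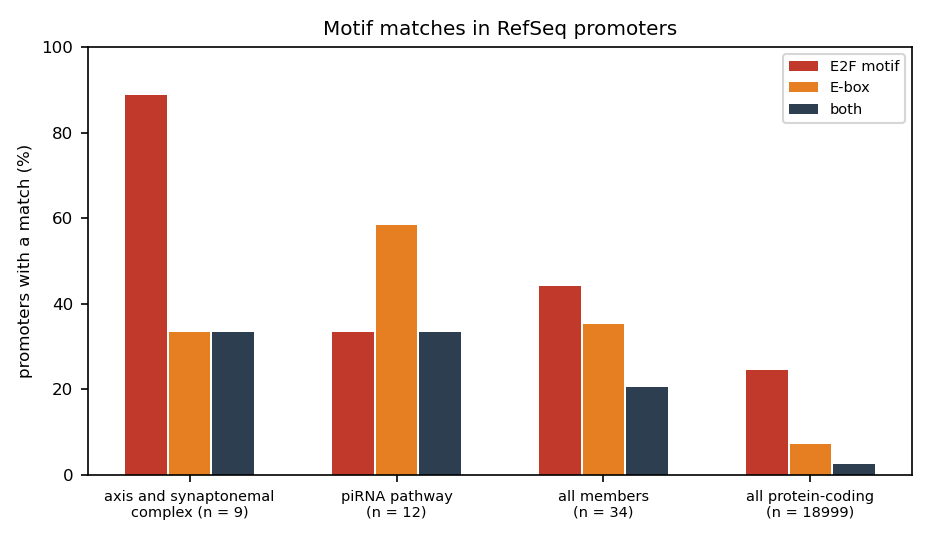
Share of RefSeq promoters of 300 bases (%) that hold the E2F letters, the E-box or both, for 9 axis and synaptonemal complex genes, 12 piRNA pathway genes, all 34 members found and 18999 protein-coding genes. The E2F bar is highest for the axis genes, at 88.9%, and the E-box bar is highest for the piRNA genes, at 58.3%.

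The promoters of Tuba3b, Ddx4 and Tex12 are shown because these genes had the largest differences after Tex11 among those at a mean of 5 RPKM or more in Kcnh2-/-. They are printed from 5′ to 3′ on the gene's strand, in lower case, with motif matches in capitals. Positions are those of the first letter of the match, counted from 1 at the start site and from -1 just before it. Tuba3b (chr4:180319350-180319649, plus strand) holds an E2F match at -184. Promoters were matched by symbol alone, and this position lies nearer to the rn6 locus of Tuba3a (chromosome 4, 179905115 to 179910704). The rn6 locus of Tuba3b starts at 157789873. Whether this promoter, also counted above, belongs to the copy measured as Tuba3b is therefore uncertain. Ddx4 (chr2:46015902-46016201, minus strand) holds an E2F match at -187 and an E-box at -80. Tex12 (chr8:59809509-59809808, minus strand) holds an E2F match at -86 and an E-box at -34.
Tuba3b: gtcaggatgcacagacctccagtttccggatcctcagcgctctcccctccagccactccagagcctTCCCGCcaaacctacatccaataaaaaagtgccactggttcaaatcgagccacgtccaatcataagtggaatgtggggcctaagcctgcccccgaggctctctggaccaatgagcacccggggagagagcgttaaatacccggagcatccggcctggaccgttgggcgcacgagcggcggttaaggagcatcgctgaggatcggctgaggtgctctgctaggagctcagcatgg
Ddx4: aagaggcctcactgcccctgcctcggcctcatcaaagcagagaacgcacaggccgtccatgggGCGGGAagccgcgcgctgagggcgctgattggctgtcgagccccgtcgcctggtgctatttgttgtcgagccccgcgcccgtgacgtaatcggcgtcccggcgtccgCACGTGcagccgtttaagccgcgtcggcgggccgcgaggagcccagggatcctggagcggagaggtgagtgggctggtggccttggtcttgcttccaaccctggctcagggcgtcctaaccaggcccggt
Tex12: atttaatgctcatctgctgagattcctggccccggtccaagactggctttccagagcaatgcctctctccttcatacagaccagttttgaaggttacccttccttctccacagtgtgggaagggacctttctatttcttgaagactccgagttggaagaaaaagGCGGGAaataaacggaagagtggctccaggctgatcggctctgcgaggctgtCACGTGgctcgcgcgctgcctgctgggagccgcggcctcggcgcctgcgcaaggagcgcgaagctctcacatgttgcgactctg

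The promoters of Sycp3 and Hormad1 were added after the motif counts were seen, as the other axis genes with both motifs. Sycp3 (chr7:24761226-24761525, plus strand) holds E-boxes at -85 and -64 and an E2F match at 31. Hormad1 (chr2:185805422-185805721, plus strand) holds an E2F match at -92 and an E-box at -54.
Sycp3: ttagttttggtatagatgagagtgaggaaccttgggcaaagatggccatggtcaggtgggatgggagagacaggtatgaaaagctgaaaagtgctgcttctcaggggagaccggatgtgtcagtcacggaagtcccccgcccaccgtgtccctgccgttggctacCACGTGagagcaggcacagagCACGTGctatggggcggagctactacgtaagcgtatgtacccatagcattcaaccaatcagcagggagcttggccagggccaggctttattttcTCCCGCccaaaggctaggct
Hormad1: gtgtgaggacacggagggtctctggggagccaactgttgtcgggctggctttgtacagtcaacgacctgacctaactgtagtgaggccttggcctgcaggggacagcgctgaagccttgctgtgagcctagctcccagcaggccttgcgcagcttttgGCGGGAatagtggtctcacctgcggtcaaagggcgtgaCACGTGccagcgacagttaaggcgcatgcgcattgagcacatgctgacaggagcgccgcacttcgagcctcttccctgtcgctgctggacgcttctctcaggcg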

How the data were processed

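Total RNA was depleted of ribosomal RNA, made into strand-marking libraries and sequenced as paired 100 bp reads, per the labels' protocols. TopHat2 2.0.13, Cufflinks 2.2.1 and the rn6 genome are named in the submitters' processing notes, while the annotation and the sharing of reads between overlapping genes are not given in the sources used here. Each library has 1 deposited table of RPKM as the authors made them, per the file headers, with no counts, so no counting interval is given. How the strand was used in counting is not stated.

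Kcnh2-/- minus WT was fitted with limma 3.58.1 (lmFit and eBayes with trend, two-sided, R 4.3.3) on log2(RPKM + 1), a scale that understates changes of low genes, over the 12355 genes that reached 1 RPKM in 2 or more libraries. Benjamini-Hochberg adjustment ran over all of them with a threshold of 0.05, and the fit was tested on simulated data. No replicate term was used. Alternatives were the pseudocount, the filter, the scaling, a replicate block, protein-coding genes alone (10845, by RefSeq symbol, GRCr8) and each library left out. All 43 members are accounted for. From other lists, the 3 tested genes with the largest difference and the 2 of highest mean are named, and other genes were picked with their values in view. The members and lists were chosen with earlier results of these data known. Listed symbols without a row (such as Dppa2, Majin and Zfp42) were not analysed here. Plots were made with matplotlib 3.10.9 in Python 3.11.15.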

Additional observations from a re-analysis of the deposited data

How the results depend on the processing

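Limma called 0 of the 29 tested germline genes as reported, and 0 with a pseudocount of 0.1 RPKM, without the filter, with a mean of 5 RPKM or more, with median-of-ratios scaling, with quantile normalization, with protein-coding genes alone and without any 1 library. With the replicate block over all genes limma called 2, Tex11 (adjusted p = 0.0415) and Tuba3b (0.0408), and 28 genes in all against 14. With protein-coding genes alone and the replicate block it called 6 of the 29 and 81 genes in all. The 6 were Tex11 (adjusted p = 0.00227), Tuba3b (0.00431), Tex12 (0.0133), Fkbp6 (0.0241), Sohlh2 (0.0241) and Ddx4 (0.0421), each higher in Kcnh2-/-. Between same-numbered libraries the deviations from the group means correlated at 0.381 over all genes tested and at 0.582 over the protein-coding ones. With 2 pairs and no label that ties them, this is a hint from the data and not a pairing by design. Calls over all genes came to 1 without the filter, 3 with a mean of 5 RPKM or more, 3 with protein-coding genes alone, and 10 to 16 with 1 library left out.

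The count of genes with groups that did not overlap was 8 of the 13 left with a mean of 5 RPKM or more, against 15 of 29, and it ran from 15 to 29 with 1 library left out, being 29 without WT replicate 2 and 24 without Kcnh2-/- replicate 1. The median difference in log2(RPKM + 1) ran from 0.56 (without WT replicate 1) to 1.89 (without WT replicate 2). WT replicate 1 decided the direction of 8 genes: without it the differences were -0.0938 for Asz1, -0.68 for Dnd1, -0.23 for Hormad2, -0.43 for Piwil2, -0.57 for Syce3, -0.34 for Tdrkh, -0.55 for Tex101 and -0.47 for Tex15. Without Kcnh2-/- replicate 2 they were -0.0946 for Asz1, -0.26 for Dnd1, -0.0566 for Tdrkh and -0.33 for Tex101. Without WT replicate 2 that of Tdrd5 was 0.0876. Over leave-one-out fits the differences ran up to 1.76 for Asz1, 0.72 for Dnd1, 1.79 for Hormad2, 1.46 for Piwil2, 1.20 for Syce3, 0.36 for Tdrkh, 1.29 for Tex101 and 2.68 for Tex15, and down to -1.61 for Tdrd5. The cause was not tested. The depth behind RPKM values under 0.5 is unknown.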
